A study of Homo sapiens with 11 samples.

Results

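Polycomb genes encode chromatin regulators that keep developmental genes repressed. The list examined here held 34 genes, chosen by name from the components of Polycomb repressor complex (PRC) 2, PRC1 and the PR-DUB complex, and it included AUTS2. Of these, 30 genes were measured by 93 probe sets that carry only their symbol, among 19775 genes in all. They comprised 6 core genes of PRC2, 5 accessory genes of PRC2, 17 genes of PRC1 and 2 genes of PR-DUB. BMI1, RNF2, CBX8 and BAP1 are not analysed here, because none of the probe sets used was assigned to them alone.

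PRC2 places methyl groups on lysine 27 of histone H3 through its catalytic subunit EZH2 or EZH1. PRC1 attaches ubiquitin to histone H2A, and each PRC1 variant is built around a RING protein and 1 of the PCGF proteins. AUTS2 is known as a partner of PRC1 variants containing PCGF3 or PCGF5 and has been tied to gene activation by this complex, while PR-DUB removes ubiquitin from histone H2A. In T-cell acute lymphoblastic leukemia (T-ALL), loss of PRC2 function is a known lesion.

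RNA of 11 established T-ALL cell lines was profiled with HG U133 Plus 2.0 gene chips, 1 chip per line, and the line therefore serves as replicate. By their labels, 6 lines were NKL-positive, the study's term for expression of a homeobox gene of the NKL subclass (LOUCY, JURKAT, PEER, HPB-ALL, CCRF-CEM and ALL-SIL), and 5 were NKL-negative (SUP-T1, MOLT-16, MOLT-14, MOLT-4 and CML-T1). The labels name no treatment, and every line is an established culture of malignant T-cells with its own genetic lesions. The study compared 5 lines per group and left JURKAT out, which was followed here for all group differences. Each value is an RMA signal on the log2 scale, where 1 unit is a 2-fold change, and genes with several probe sets are represented by the one of highest mean. Values under the lower quartile of an array, which ran from 3.45 to 3.60, have no order among them.

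Of 9 T-lineage markers, 8 lay above the array median in all 11 lines, CD2 being the exception, as did 1 of 3 B-cell markers, namely CD79A with 5.77 to 10.12, 1 of 3 stroma markers and none of 4 myeloid and 2 erythroid markers. Bacterial poly-A transcripts spiked into the RNA as labelling controls gave means of 5.96 to 9.48 on 8 arrays but only 3.01 to 3.14 on those of MOLT-16, CML-T1 and HPB-ALL. SUZ12, YAF2 and L3MBTL2 did not overlap between these sets of lines, which is 3 of 30 Polycomb genes against 12.4% of all genes. The 3 lines without poly-A signal differed from the others by −0.55 for SUZ12, −0.72 for L3MBTL2 and 0.75 for YAF2. Of all 30 genes, PCGF2 with −1.80, AUTS2 with 1.74 and PHF19 with −1.06 differed most, though for them these sets of lines overlapped.

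Most Polycomb genes varied between lines about as much as genes in general, while AUTS2, EZH2 and PCGF2 varied far more. The median range between the lowest and the highest line was 1.52 log2 units for the 30 genes and 1.66 for all genes. A range of at least 2 units was found for 7 of 30 Polycomb genes and 7188 of 19775 genes. Besides the 3 genes named, these were PCGF3 with 2.78, CBX2 with 2.52, PCGF5 with 2.46 and PHF19 with 2.41. With values under the lower quartile of an array set to that quartile, EZH2 spanned at least 7.70 units, AUTS2 at least 7.22 and PCGF2 at least 5.26, and 0.41%, 0.678% and 3.44% of all genes reached such spans. A gene was said to stand out in a line where it lay at least 2 units below the median of the other 10 lines, or at least 2 units above it and over the array median. Altogether 10 pairs of a Polycomb gene and a line stood out, of which 8 belonged to AUTS2, 1 to EZH2 and 1 to PCGF2. Among all genes, 11.5% stood out high in at least 1 line and 9.47% stood out low, against 1 and 3 of the 30 Polycomb genes. When restricted to genes with a mean as high as that of the lowest Polycomb gene, these shares were 5.76% and 12.6%, so that the number of Polycomb genes standing out was close to the background. The heatmap of all members by line shows these 3 genes as the rows with strong colour.

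**Figure D1:**
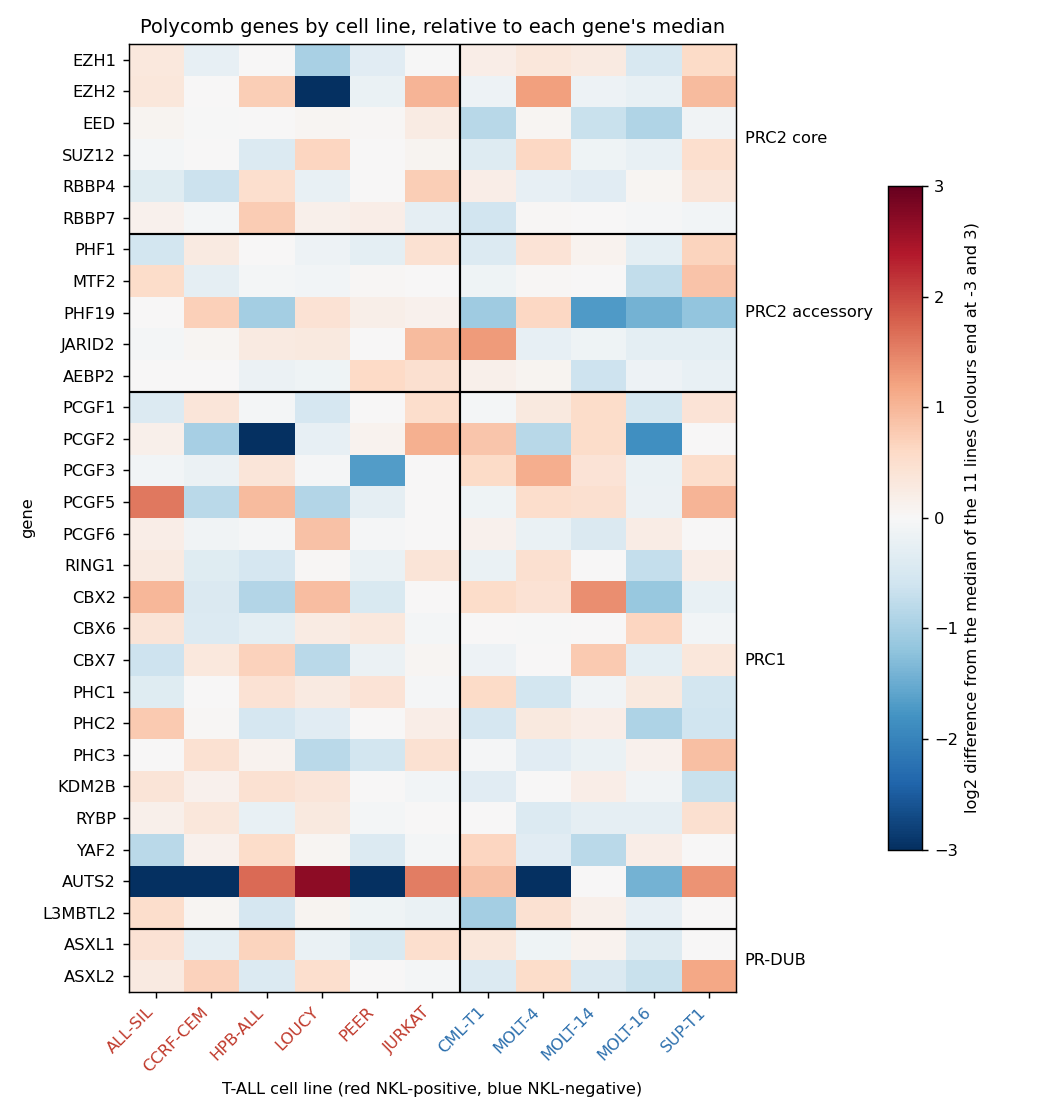
Heatmap of 30 Polycomb genes (rows, ordered by complex) in 11 T-ALL cell lines (columns, NKL-positive lines left of the black line with names in red, NKL-negative lines right of it in blue). Colour gives the log2 difference of a line from the median of the 11 lines for that gene, and differences beyond 3 units have the end colours. AUTS2 varies across most lines, EZH2 is low in LOUCY and PCGF2 is low in HPB-ALL.

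The start regions of these 3 genes are shown because their levels varied most. The sequences are from RefSeq on GRCh38.p14, run 5′ to 3′ on the strand of the gene from 250 bases before to 50 bases after an annotated transcript start, and carry CpG dinucleotides in capitals. AUTS2 lies on the plus strand at chr7:69598225-69598524, EZH2 on the minus strand at chr7:148884242-148884541, which is 1 of 2 windows listed for it, and PCGF2 on the minus strand at chr17:38746579-38746878.
AUTS2: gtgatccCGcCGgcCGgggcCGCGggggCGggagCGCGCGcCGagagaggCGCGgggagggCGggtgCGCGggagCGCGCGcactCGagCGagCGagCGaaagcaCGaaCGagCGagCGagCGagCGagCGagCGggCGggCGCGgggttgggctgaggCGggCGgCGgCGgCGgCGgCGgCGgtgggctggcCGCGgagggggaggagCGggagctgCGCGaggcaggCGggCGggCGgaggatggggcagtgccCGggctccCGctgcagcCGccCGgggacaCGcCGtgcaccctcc
EZH2: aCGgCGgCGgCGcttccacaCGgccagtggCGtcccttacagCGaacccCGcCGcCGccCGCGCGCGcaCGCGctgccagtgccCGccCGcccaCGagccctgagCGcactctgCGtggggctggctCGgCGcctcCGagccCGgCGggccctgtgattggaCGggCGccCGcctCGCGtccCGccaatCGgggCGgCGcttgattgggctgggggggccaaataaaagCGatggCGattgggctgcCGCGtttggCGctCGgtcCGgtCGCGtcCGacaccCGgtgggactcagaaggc
PCGF2: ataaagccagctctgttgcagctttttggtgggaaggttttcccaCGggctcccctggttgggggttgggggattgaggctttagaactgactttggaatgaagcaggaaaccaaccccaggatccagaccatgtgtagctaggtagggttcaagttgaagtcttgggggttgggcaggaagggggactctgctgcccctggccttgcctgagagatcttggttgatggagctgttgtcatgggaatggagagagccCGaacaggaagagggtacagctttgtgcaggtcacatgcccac
The windows of AUTS2 and EZH2 held 55 and 46 CpG dinucleotides with a GC content of 82.3% and 74.7%, while that of PCGF2 held 2 with a GC content of 54.7%. The 48 windows of the 31 members found in that table had a median of 32.5 CpG dinucleotides, and 89.6% of them had an observed over expected CpG ratio of at least 0.6, as compared to a median of 14 and a share of 48.9% for all 35116 windows. The 1 window listed for PCGF2 thus differed in base composition from most windows of other Polycomb genes. Its ratio was 0.10, against 1.18 for AUTS2 and 1.10 for EZH2. Low ratios also occurred in a window of ASXL2, with 0.23 beside 1.09 in another, and of PCGF5, with 0.40 beside 1.19 in another. Which start the lines use was not tested. The E2F motif, searched as TTTGGCGC or TTTCCCGC on both strands, was found in the EZH2 window and in 4 of 48 member windows (8.33%), against 2.27% of all windows. A core motif of homeodomain factors, searched as TAATT on both strands, was found in none of the 3 sequences shown, in 11 of 48 member windows (22.9%) and in 24.8% of all windows. These matches describe letters in the genome and not binding.

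AUTS2, which carries the name of a neurodevelopmental syndrome and recruits the coactivator EP300 to PRC1, stood out in 8 of 11 lines, 4 times high and 4 times low. In the NKL-positive lines it measured 3.09 in ALL-SIL, 4.54 in CCRF-CEM, 9.68 in HPB-ALL, 10.67 in LOUCY, 3.08 in PEER and 9.52 in JURKAT. In the NKL-negative lines it measured 8.86 in CML-T1, 4.84 in MOLT-4, 7.99 in MOLT-14, 6.57 in MOLT-16 and 9.33 in SUP-T1. LOUCY was highest, followed by HPB-ALL, JURKAT, SUP-T1 and CML-T1, then MOLT-14 and MOLT-16, while MOLT-4 and CCRF-CEM were near the array medians and ALL-SIL and PEER were below the lower quartile of their arrays. With 1 array per line, no error can be given for the step between neighbouring lines. The 2 lines at the bottom lay at least 4.94 and 4.98 units below the median of the other lines, taking the lower quartile of their arrays as the limit. In bulk RNA, fewer expressing cells and less RNA per cell cannot be told apart.

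Both groups held high and low lines, so that they overlapped. The mean of AUTS2 was 6.21 ± 3.68 (SD, n = 5) in the NKL-positive and 7.52 ± 1.83 (SD, n = 5) in the NKL-negative group. The difference was −1.31 (SE 1.61, 95% interval −4.86 to 2.25, limma adjusted p = 0.982). It was −0.52 without PEER, −0.53 without ALL-SIL and −2.42 without LOUCY, which shows the weight of single lines in this value. The difference of AUTS2 was −2.04 in lines with poly-A signal only and −0.92 with a term for poly-A controls.

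The remaining probe sets of AUTS2, 2 in number, were weaker. One of them reached 5.97 in LOUCY, 4.87 in SUP-T1 and 4.82 in HPB-ALL, ran from 3.26 in CCRF-CEM to 4.43 in MOLT-4 among the other lines and gave 3.31 in JURKAT, where the main probe set was high. The other reached 6.68 in SUP-T1 and 5.89 in LOUCY, ran from 3.04 in CML-T1 to 4.78 in MOLT-4 among the others and gave 3.89 in HPB-ALL. LOUCY and SUP-T1 were thus the highest lines by both of these probe sets, ALL-SIL and PEER did not pass 3.64 by any of the 3, and the rank of HPB-ALL, JURKAT and CML-T1 depended on the probe set. Their group differences were −0.02 (SE 0.52) and −0.28 (SE 0.71).

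The study examined AUTS2 together with the NKL homeobox genes HHEX, MSX1 and NKX2-5. MSX1 was highest in LOUCY with 8.04, JURKAT with 7.69 and HPB-ALL with 6.95, which are the same 3 lines that led for AUTS2, but it measured only 3.55 in SUP-T1 and 3.21 in CML-T1. A second, weaker probe set of MSX1 ran from 3.76 in MOLT-16 to 5.29 in PEER and gave 4.54 in LOUCY, 4.78 in JURKAT and 4.28 in HPB-ALL, so that this order rests on 1 probe set. HHEX reached 10.89 in LOUCY together with high AUTS2, and 10.61 in CCRF-CEM and 9.92 in PEER together with low AUTS2. NKX2-5 was high only in CCRF-CEM with 11.41 and PEER with 10.10, where AUTS2 was low. Across the 11 lines Pearson's r with AUTS2 was 0.54 for MSX1, −0.12 for HHEX and −0.55 for NKX2-5, given as a description of 11 arrays.

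Among the Polycomb genes themselves, those with the highest r with AUTS2 over the 11 lines were RBBP4 with 0.58 (Spearman's rho 0.62), YAF2 with 0.53 (0.45) and JARID2 with 0.44 (0.37). The lowest were PHC2 with −0.54 (−0.40), L3MBTL2 with −0.48 (−0.36) and PHF19 with −0.40 (−0.21). YAF2 and L3MBTL2 also moved with the poly-A controls, and the part of this in their r was not tested. The genes of the AUTS2-containing PRC1 variants, PCGF3 and PCGF5, had an r of 0.43 and −0.12.

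**Figure D2:**
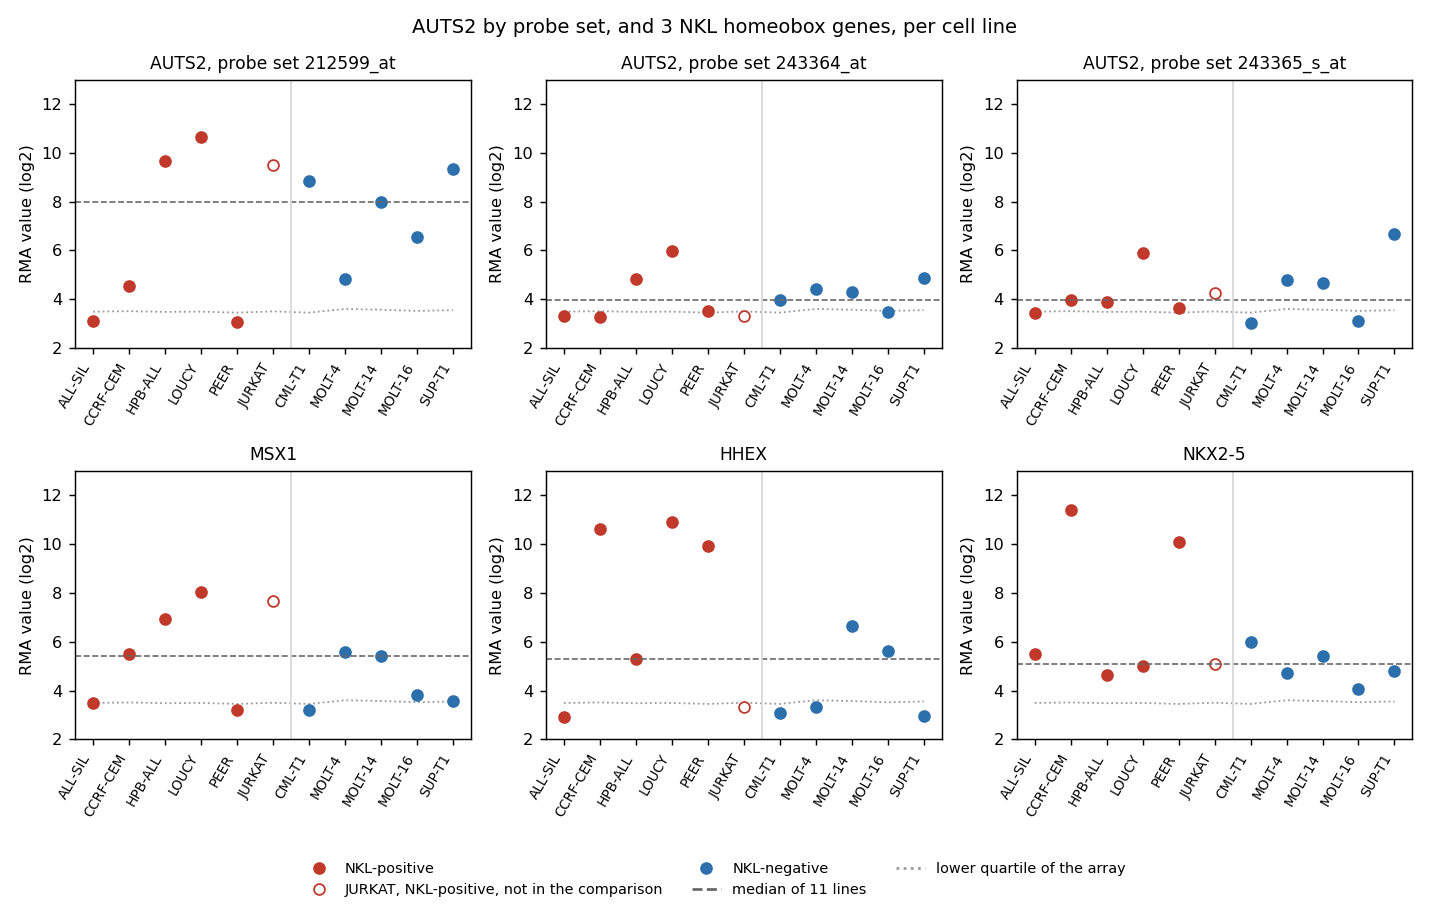
RMA values (y-axis, log2) of the 3 probe sets of AUTS2 (upper row) and of MSX1, HHEX and NKX2-5 (lower row) in 11 T-ALL cell lines (x-axis), 1 array each, with NKL-positive lines in red, JURKAT as open circle, NKL-negative lines in blue, dashes at the gene's median and dots at the lower quartile of each array. AUTS2 and MSX1 share LOUCY, HPB-ALL and JURKAT as their 3 highest lines in the first panel of each row.

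EZH2, the main methyltransferase of PRC2 in dividing cells, lay under the lower quartile of the array in 1 line. It measured 10.28 in ALL-SIL, 9.95 in CCRF-CEM, 10.69 in HPB-ALL, 2.53 in LOUCY, 9.74 in PEER and 10.96 in JURKAT. In the NKL-negative lines the values were 9.79 in CML-T1, 11.19 in MOLT-4, 9.79 in MOLT-14, 9.73 in MOLT-16 and 10.89 in SUP-T1. LOUCY alone was low, at least 6.63 units below the median of 10.12 in the other lines, and the other 10 lines ran from 9.73 to 11.19. With low values limited in this way, 8 of 19775 genes, EZH2 included, lay at least this far below the other lines in LOUCY. EZH2 was measured by a single probe set with only its symbol, so that no other probe set could be compared.

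The genes around EZH2 and the cell cycle genes were examined after this value was seen. Of the 16 nearest measured genes on chromosome 7, 8 on each side in RefSeq order, 9 had a median in the other lines above the array median. Of these 16 genes, 0 stood out low in LOUCY. With the lower quartile of 3.49 as limit, NOBOX and ARHGEF5, with medians of 4.91 and 5.425 elsewhere, could not show a gap of 2 units. A loss of less than 2 units would not stand out by this rule in any gene, and loss of the region was not tested. The flanking genes CUL1, a scaffold of ubiquitin ligases, and PDIA4, a chaperone of the endoplasmic reticulum, lay 0.18 and 0.43 units above their medians. Of 16 genes of DNA replication and mitosis, 0 stood out low in LOUCY, and their gaps ran from −0.85 to 0.79. The other 10 PRC2 genes had gaps of −1.08 to 0.94 in this line, the lowest of them being that of EZH1.

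The difference of EZH2 between the groups was −1.64 (SE 1.37, 95% interval −4.67 to 1.39, limma adjusted p = 0.981). Without LOUCY it was −0.11, so that a single line set this value. EZH1, the paralogue that prevails in resting cells, measured 8.49 in ALL-SIL, 7.93 in CCRF-CEM, 8.17 in HPB-ALL, 7.19 in LOUCY, 7.83 in PEER and 8.16 in JURKAT. In the other group it measured 8.36 in CML-T1, 8.50 in MOLT-4, 8.45 in MOLT-14, 7.68 in MOLT-16 and 8.75 in SUP-T1. EZH1 was lowest in LOUCY and highest in SUP-T1, the groups overlapped, and the difference was −0.43 (SE 0.28, limma adjusted p = 0.981). It was −0.24 without LOUCY, −0.23 as the mean over its 5 probe sets and −0.71 in lines with poly-A signal only.

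Of the remaining PRC2 core, EED, the subunit that reads methylated lysine 27, was steady in the NKL-positive lines, at 9.92 in ALL-SIL, 9.81 in CCRF-CEM, 9.83 in HPB-ALL, 9.88 in LOUCY, 9.87 in PEER and 10.08 in JURKAT. It measured 8.99 in CML-T1, 9.89 in MOLT-4, 9.16 in MOLT-14, 8.93 in MOLT-16 and 9.72 in SUP-T1. CML-T1, MOLT-14 and MOLT-16 were low, while MOLT-4 and SUP-T1 were close to the NKL-positive lines. EED was higher by 0.52 (SE 0.22) in the NKL-positive group with an unadjusted limma p of 0.0368 and an adjusted p of 0.981. It thus failed the correction. The difference was 0.28 in lines with poly-A signal only and 0.20 as the mean over both probe sets, the second of which gave −0.12 (SE 0.25) at low signal. CML-T1 and MOLT-16, where EED was low, had no poly-A signal and were also lowest in 16 genes of DNA replication and mitosis, with mean deviations of −0.93 and −0.62, and all 16 of these had higher means in the NKL-positive group, 4 of them at an unadjusted p under 0.05. The part of this in the difference of EED was not tested.

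SUZ12, the scaffold of PRC2, ranged from 10.49 in HPB-ALL to 11.53 in LOUCY with a difference of −0.04 (SE 0.27). RBBP4 and RBBP7, histone chaperones that PRC2 shares with other complexes, differed by −0.15 (SE 0.25) and 0.37 (SE 0.21). RBBP4 was highest in JURKAT with 12.01 and RBBP7 in HPB-ALL with 11.93. The smallest limma adjusted p of the PRC2 core was 0.981, and the median difference of its 6 genes was −0.10 with 2 genes higher and 4 lower.

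**Figure D3:**
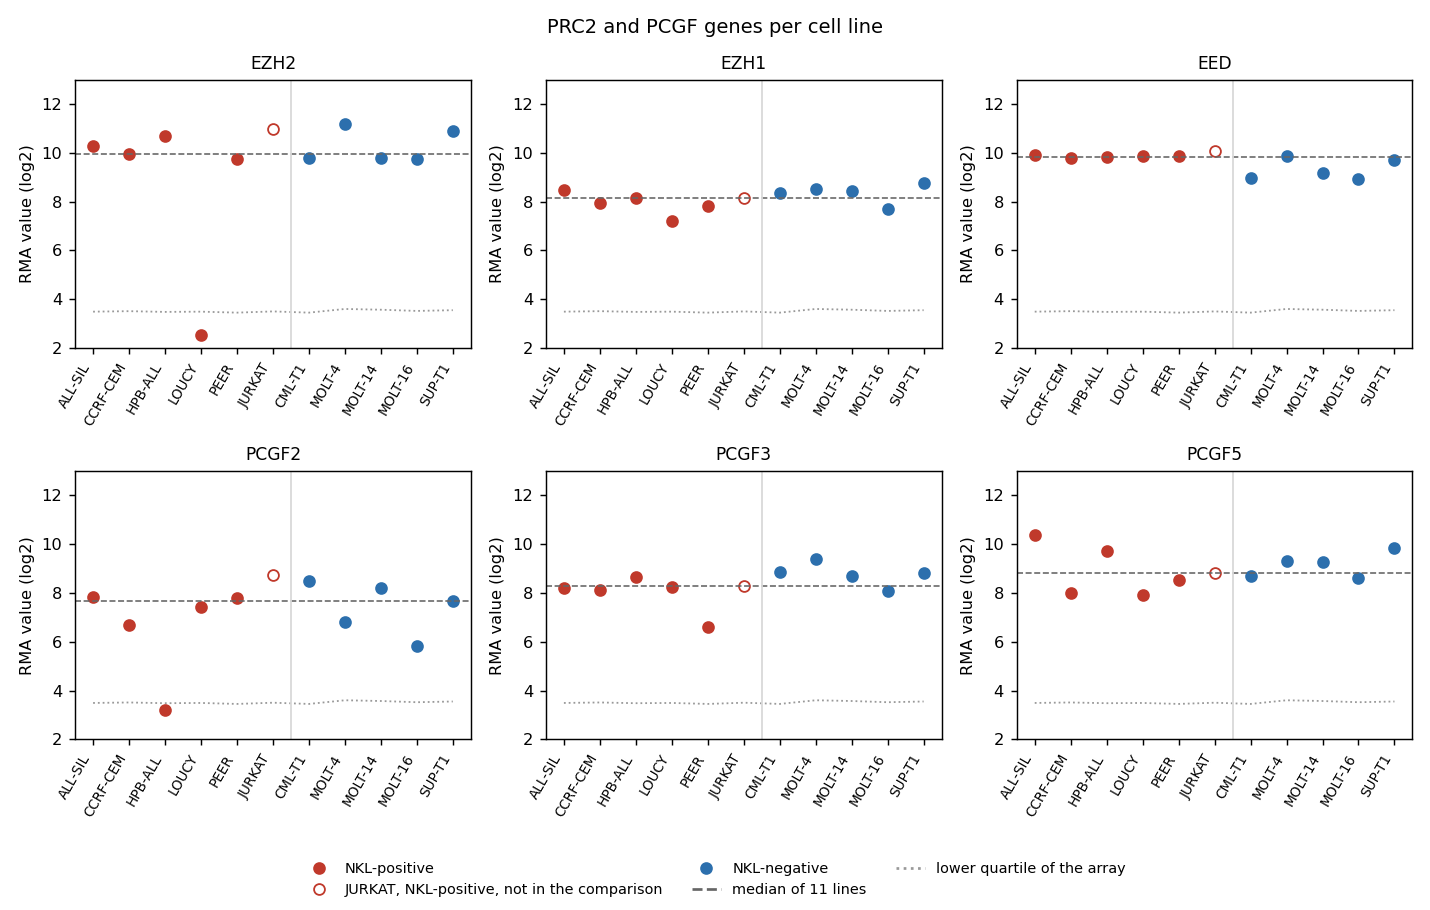
RMA values (y-axis, log2) of the PRC2 genes EZH2, EZH1 and EED and of the PRC1 genes PCGF2, PCGF3 and PCGF5 in 11 T-ALL cell lines (x-axis), 1 array each, with NKL-positive lines in red, JURKAT as open circle, NKL-negative lines in blue, dashes at the gene's median and dots at the lower quartile of each array. EZH2 measured 2.53 in LOUCY and PCGF2 measured 3.20 in HPB-ALL, both under the dotted line.

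The accessory genes define the PRC2 variants. PHF19, PHF1 and MTF2 are the Polycomb-like proteins that bind CpG-rich DNA, while JARID2 and AEBP2 mark the other variant. PHF19 ranged from 7.77 in MOLT-14 to 10.18 in CCRF-CEM and averaged 9.53 ± 0.66 (SD, n = 5) in NKL-positive and 8.52 ± 0.91 (SD, n = 5) in NKL-negative lines. Its difference of 1.01 (SE 0.46) had an unadjusted limma p of 0.0504 and an adjusted p of 0.981, and MOLT-4 with 10.09 was the only NKL-negative line within the range of the NKL-positive lines. A second probe set of PHF19 gave 1.42 (SE 0.39) with an adjusted p of 0.824, and the third gave 0.58 (SE 0.39).

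PHF1 differed by −0.24 (SE 0.25), MTF2 by 0.03 (SE 0.29), JARID2 by 0.05 (SE 0.31) and AEBP2 by 0.21 (SE 0.22). JARID2 was highest in CML-T1 with 11.44 and in JURKAT with 11.10, while the other 9 lines ran from 9.86 to 10.46. On another probe set LOUCY with 11.21 was close to CML-T1 with 11.25 and JURKAT with 11.41. Of these 5 genes, 4 were higher and 1 was lower in NKL-positive lines, with a median difference of 0.05.

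Within PRC1, PCGF2 (MEL18), a close relative of BMI1 that forms the canonical complex, was low in 1 line. It measured 7.82 in ALL-SIL, 6.67 in CCRF-CEM, 3.20 in HPB-ALL, 7.43 in LOUCY, 7.78 in PEER and 8.74 in JURKAT. The NKL-negative lines gave 8.50 in CML-T1, 6.83 in MOLT-4, 8.22 in MOLT-14, 5.83 in MOLT-16 and 7.67 in SUP-T1. HPB-ALL was at least 4.25 units below the median of the other lines and MOLT-16 was the next lowest. With low values limited to the lower quartile of the array, 53 of 19775 genes, PCGF2 included, lay at least this far below in HPB-ALL. The other 3 probe sets of PCGF2 measured 4.33, 5.06 and 4.49 in HPB-ALL and 4.07, 5.17 and 5.80 in MOLT-16; these were the lowest lines except on the second of them, where CCRF-CEM measured 4.96. All 4 probe sets are of the type that may also bind other transcripts. HPB-ALL and MOLT-16 are also among the 3 lines without poly-A signal, and in the third of these lines, CML-T1, PCGF2 measured 8.50. The part of the poly-A signal in the low values of PCGF2 was not tested.

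Of the 16 nearest measured genes on chromosome 17, 13 of which had a median above the array median, 1 stood out low in HPB-ALL, namely EPOP, which measured 3.83 there and had a median of 7.39 elsewhere. EPOP encodes another PRC2 accessory protein and was named after its value was seen. The other 4 PCGF genes had gaps of −0.20 to 1.0 in HPB-ALL. The group difference of PCGF2 was −0.83 (SE 0.88, limma adjusted p = 0.981), and it was 0.02 without HPB-ALL.

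PCGF3 measured 8.21 in ALL-SIL, 8.11 in CCRF-CEM, 8.65 in HPB-ALL, 8.25 in LOUCY, 6.61 in PEER and 8.29 in JURKAT. It measured 8.86 in CML-T1, 9.39 in MOLT-4, 8.70 in MOLT-14, 8.10 in MOLT-16 and 8.82 in SUP-T1. PEER was lowest and MOLT-4 highest, the groups overlapped because MOLT-16 lay within the range of the NKL-positive lines, and the difference was −0.81 (SE 0.38, limma adjusted p = 0.981). It was −0.47 without PEER and −0.30 as the mean over its 5 probe sets.

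PCGF5 measured 10.38 in ALL-SIL, 7.99 in CCRF-CEM, 9.74 in HPB-ALL, 7.92 in LOUCY, 8.54 in PEER and 8.80 in JURKAT. It measured 8.68 in CML-T1, 9.32 in MOLT-4, 9.27 in MOLT-14, 8.63 in MOLT-16 and 9.83 in SUP-T1. The NKL-positive lines included both the highest and the lowest value, with a difference of −0.23 (SE 0.49). Lines with high and low AUTS2 occurred at both ends of PCGF5, namely LOUCY and CCRF-CEM at the lower end and HPB-ALL and ALL-SIL at the upper end. PCGF1, the subunit of the variant with KDM2B and BCOR, differed by −0.25 (SE 0.26), and PCGF6, the subunit of the variant with E2F6 and L3MBTL2, by 0.25 (SE 0.23) with its highest value of 8.85 in LOUCY.

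KDM2B, which brings PRC1 to CpG islands, was the other gene with an unadjusted p under 0.05. It measured 10.26 in ALL-SIL, 10.01 in CCRF-CEM, 10.34 in HPB-ALL, 10.24 in LOUCY, 9.88 in PEER and 9.79 in JURKAT. It measured 9.53 in CML-T1, 9.88 in MOLT-4, 10.08 in MOLT-14, 9.77 in MOLT-16 and 9.21 in SUP-T1. The groups overlapped because MOLT-4 and MOLT-14 lay within the range of the NKL-positive lines, and JURKAT lay within the NKL-negative range. The difference of 0.45 (SE 0.20) had an unadjusted limma p of 0.0491 and an adjusted p of 0.981.

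RING1, the catalytic RING protein measured here, differed by −0.10 (SE 0.25) and ranged from 8.46 to 9.65. The CBX proteins read the PRC2 mark in canonical PRC1, and CBX2 ranged from 7.24 in MOLT-16 to 9.76 in MOLT-14, CBX6 from 7.58 in CCRF-CEM to 8.65 in MOLT-16 and CBX7 from 5.80 in LOUCY to 7.38 in MOLT-14. Their differences were −0.18 (SE 0.52), −0.07 (SE 0.23) and −0.25 (SE 0.33). On the other probe set of CBX6, MOLT-16 measured 7.93 and JURKAT was highest with 8.38. The polyhomeotic genes PHC1, PHC2 and PHC3, which link PRC1 complexes to each other, differed by 0.22 (SE 0.27), 0.30 (SE 0.31) and −0.25 (SE 0.31).

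RYBP and YAF2, which replace CBX proteins in variant PRC1, differed by 0.20 (SE 0.22) and −0.03 (SE 0.33), and L3MBTL2 by 0.15 (SE 0.30). A second probe set of L3MBTL2 gave 0.54 (SE 0.18) with an adjusted p of 0.968, and a probe set of RBBP4 that was not the one read gave 0.50 (SE 0.18) with an adjusted p of 0.981. In PR-DUB, ASXL1 and ASXL2, cofactors of the deubiquitinase, differed by 0.05 (SE 0.26) and 0.17 (SE 0.37).

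Thus, the comparison of 5 NKL-positive with 5 NKL-negative lines called 0 of the 30 Polycomb genes at an adjusted limma p under 0.05, while it called 3 of 19775 genes (0.0152%). At an unadjusted p under 0.05, 2 Polycomb genes were higher, against 2.63% of all genes, and 0 were lower, against 2.63% of all genes. The groups did not overlap for 0 Polycomb genes and for 0.905% of all genes. The difference was above 0 for 14 of 30 Polycomb genes (46.7%) and for 49.8% of all genes. The median difference was −0.04 for the 30 genes, −0.10 for the 17 PRC1 genes and −0.002 for all genes. The count of 2 rested on single lines, being 0 without ALL-SIL, CCRF-CEM, LOUCY or CML-T1, 1 without PEER, MOLT-14 or SUP-T1 and 3 without MOLT-4. The 95% interval was −0.09 to 0.82 for RBBP7 and −4.86 to 2.25 for AUTS2, so that the latter leaves differences of several units in either direction possible.

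**Figure D4:**
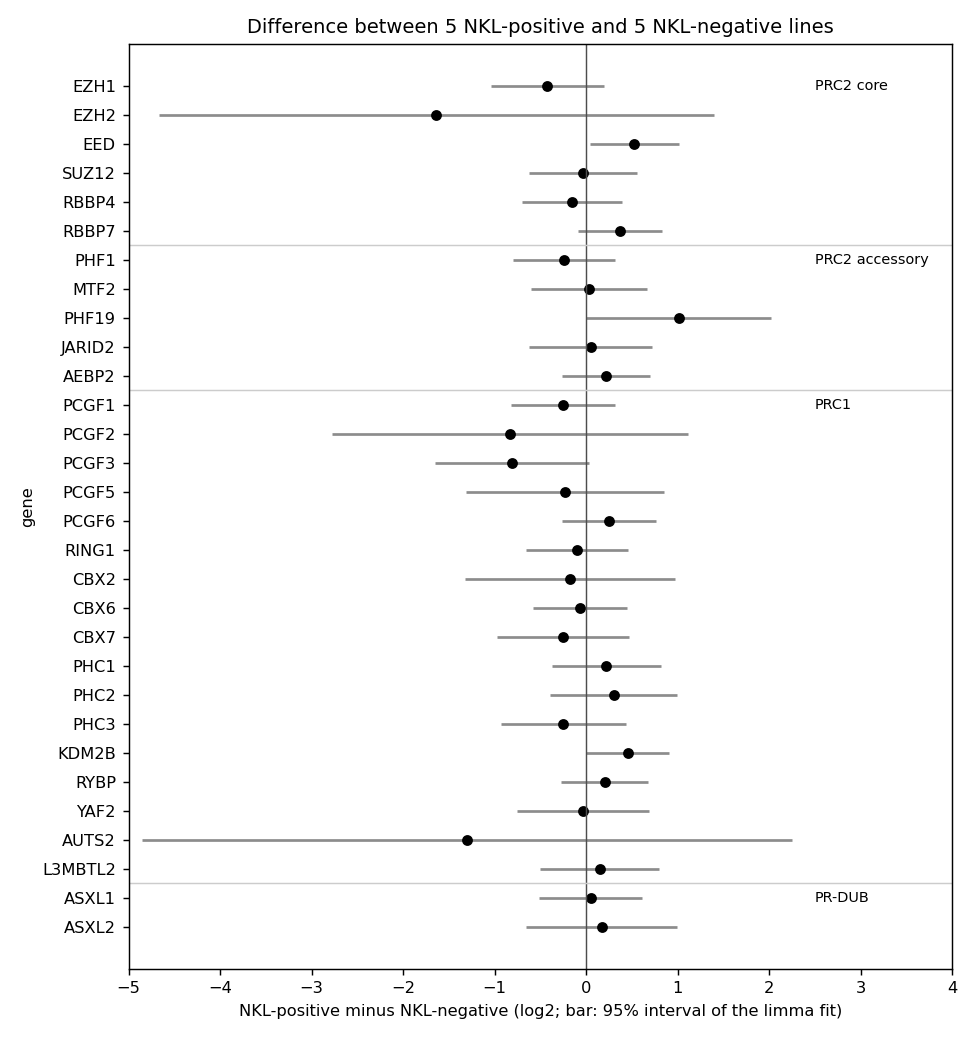
Difference between the means of 5 NKL-positive and 5 NKL-negative lines (x-axis, log2, positive values are higher in NKL-positive lines) for 30 Polycomb genes (y-axis, by complex), with points for the limma estimate and bars for its 95% interval. The bars of EED and KDM2B alone do not include 0 before adjustment, and those of AUTS2 and EZH2 are the widest.

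Averaged over the 30 Polycomb genes, the deviations of the lines from the gene medians ran from −0.40 to 0.27, against −0.07 to 0.07 over all genes. A mean over 30 genes is moved by single genes, such as EZH2 in LOUCY and AUTS2 in PEER. MOLT-16 had the lowest value of 7 of the 30 genes and deviated from the gene medians by −0.40 on average, followed by PEER with −0.275. MOLT-16 is also a line without poly-A signal, and the part of this was not tested. SUP-T1 had the highest value of 6 genes and deviated by 0.21, while JURKAT deviated by 0.27 with the highest value of 3 genes. LOUCY had the lowest value of 5 genes, namely EZH1, EZH2, PCGF5, CBX7 and PHC3, and the highest value of 3, namely SUZ12, PCGF6 and AUTS2.

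A list of 42 partner genes, which act with these complexes or oppose them, was examined in addition. None was called, 3 were lower in NKL-positive lines at an unadjusted p under 0.05, against the 2.63% of all genes given above, and 0 were higher. CSNK2A2, a catalytic subunit of casein kinase 2 that occurs in AUTS2-PRC1, averaged 8.93 ± 0.28 (SD, n = 5) in NKL-positive and 9.60 ± 0.25 (SD, n = 5) in NKL-negative lines, a difference of −0.67 (SE 0.20, limma adjusted p = 0.888). It was the only partner gene whose groups did not overlap, and JURKAT with 9.93 lay in the range of the NKL-negative lines. The other casein kinase 2 genes, CSNK2A1 and CSNK2B, differed by −0.01 (SE 0.21) and 0.37 (SE 0.21), and EP300 by 0.24 (SE 0.30).

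SCML2, a protein with MBT domains that binds PRC1, was low in ALL-SIL with 4.60, HPB-ALL with 4.38 and LOUCY with 4.68 and ran from 7.42 to 8.77 in the other 8 lines. L3MBTL3, another protein with MBT domains, was low in ALL-SIL with 3.38 and LOUCY with 3.32 and ran from 6.27 to 7.76 elsewhere. Their differences were −2.10 (SE 0.66, limma adjusted p = 0.935) and −1.96 (SE 0.78, limma adjusted p = 0.981). Each of SCML2 and L3MBTL3 was measured by 1 probe set, that of SCML2 being of the type that may also bind other transcripts. TFDP1, the dimerization partner of E2F factors, measured 3.94 in HPB-ALL and 3.85 in LOUCY against 10.20 to 10.78 in the other lines and was low in both by all 3 probe sets. Of its 16 neighbouring genes, 8 in HPB-ALL and 7 in LOUCY had a median in the other lines above the array median, and 0 stood out low. AUTS2 was high in both of these lines and also in JURKAT, SUP-T1 and CML-T1, where TFDP1 measured 10.36, 10.75 and 10.34.

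**Figure D5:**
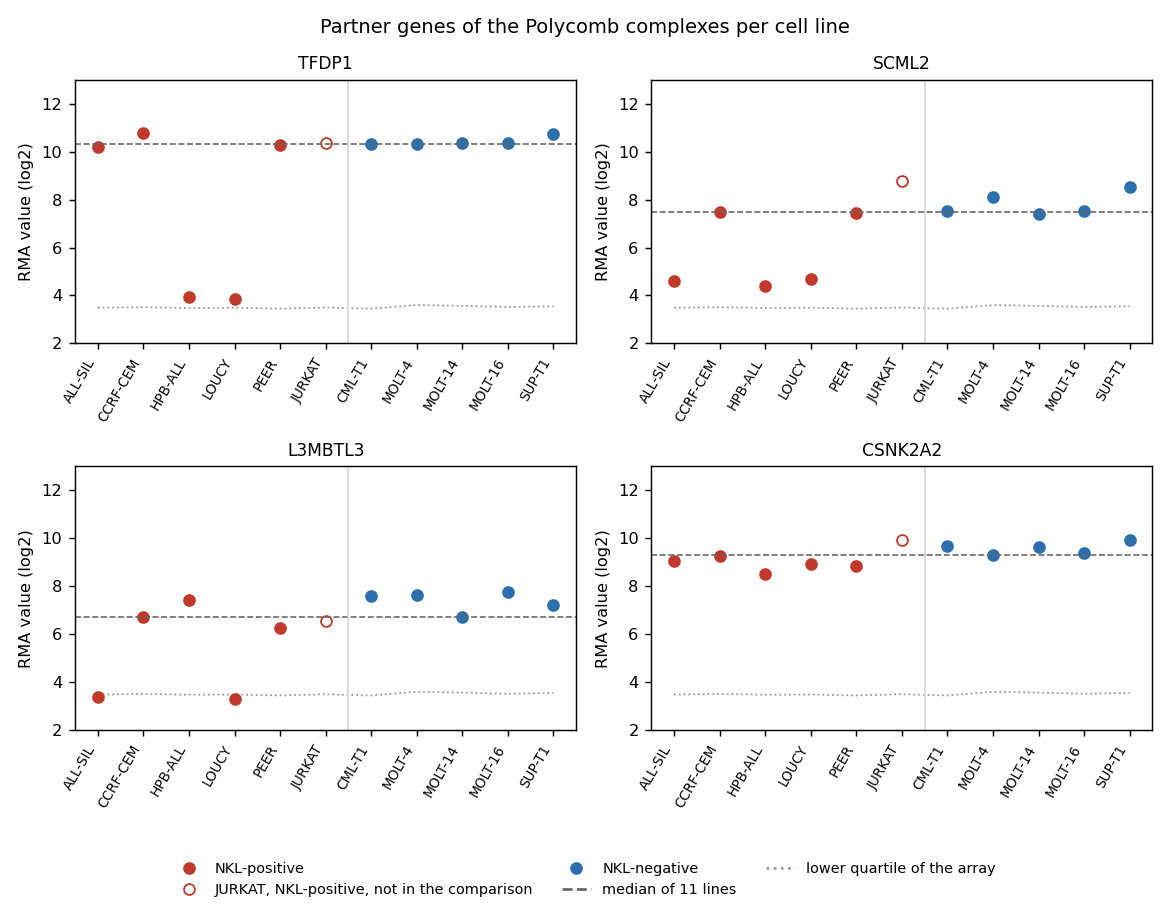
RMA values (y-axis, log2) of TFDP1, SCML2, L3MBTL3 and CSNK2A2 in 11 T-ALL cell lines (x-axis), 1 array each, with NKL-positive lines in red, JURKAT as open circle, NKL-negative lines in blue, dashes at the gene's median and dots at the lower quartile of each array. TFDP1 is low in HPB-ALL and LOUCY, SCML2 also in ALL-SIL, and L3MBTL3 in ALL-SIL and LOUCY.

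Altogether 17 pairs of a partner gene and a line stood out, from 10 genes, of which 8 of 42 were low and 2 of 42 high in some line, against the 9.47% and 11.5% of all genes given above. When restricted to genes with a mean as high as that of the lowest Polycomb gene, 5 partner genes were low and 0 high. The shares of all such genes were 12.6% and 5.76%. FBRSL1, a paralogue of AUTS2, measured 6.72 in HPB-ALL and had a median of 8.85 elsewhere. Another probe set of FBRSL1 gave 7.06 in HPB-ALL, above LOUCY and JURKAT with 7.01 and SUP-T1 with 6.83. The deubiquitinase USP7 measured 7.91 in LOUCY against 10.17. The histone demethylase gene KDM1B was low in CCRF-CEM with 3.58, and SFMBT2 was low in MOLT-14 with 4.97. L3MBTL1 was low in CCRF-CEM, MOLT-4 and MOLT-16 with 3.85, 4.20 and 3.35. Another probe set of L3MBTL1 gave 6.02 in MOLT-4, where only LOUCY with 6.56 was higher, so that its low value in MOLT-4 depended on the probe set. SCML1 was high in MOLT-14 with 6.94 and in JURKAT with 6.25, and SCML4 was high in MOLT-16 with 5.92.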

How the data were processed

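Expression in 11 T-ALL cell lines was measured with HG U133 Plus 2.0 arrays, 1 per line. According to the labels and the methods, the authors processed the array images by RMA, which corrects background, normalizes by quantiles and summarizes each probe set, and deposited the values on the log2 scale. RMA pulls arrays to a common distribution and compresses low values. Precision is limited by how few arrays there are. The submitters' processing notes also name affy and limma, without versions. The p-values measure the spread between lines, each with 1 array.

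The 62 control probe sets were left out, and 54613 were analysed without filter or scaling. The array annotation gave 1 gene symbol to 41091, several to 1801 and none to 11721. Limma 3.58.1 in R 4.3.3 compared 5 NKL-positive with 5 NKL-negative lines, adjusted by Benjamini-Hochberg over all probe sets at 0.05, after the procedure had been tested on simulated data. All 34 members were named. Values in every line were given for AUTS2, EZH1, EZH2, PCGF3, PCGF5, genes that stood out and genes with an unadjusted p under 0.05, and partner genes were named by the last 2 criteria. CSNK2A1, CSNK2B, EP300 and the genes next to EZH2 and PCGF2 were named after their values were seen. The members and lists were chosen with earlier results of these data known. Alternatives were all 11 lines, each line left out, median centring, repeated quantile normalization, a filter at the median, a floor at the 25th percentile, a term for poly-A controls, lines with poly-A signal only, an intensity trend, the mean over probe sets, and a gap of 1 unit or any probe set for genes standing out.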

Additional observations from a re-analysis of the deposited data

Results flagged for a closer look

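Of 60 sets of values, 1 for each of 30 Polycomb genes in each group, 9 held a line at the end of its group with a gap that exceeded Dixon's 95% criterion. For normally distributed values chance gives this in about 1 of 20 sets. The share of such sets over all genes was not determined, so the count is not read as a trait of Polycomb genes. EZH2 in LOUCY with 2.53, PCGF2 in HPB-ALL with 3.20 and PCGF3 in PEER with 6.61 lay below the other NKL-positive lines, JURKAT included. Above the others in that group were PCGF6 in LOUCY with 8.85 and JARID2 in JURKAT with 11.10. In the NKL-negative group RBBP7 in CML-T1 lay below the others with 10.59, while JARID2 in CML-T1 with 11.44, PHF19 in MOLT-4 with 10.09 and CBX6 in MOLT-16 with 8.65 lay above them. Some of these depended on the probe set. On the other probe set of CBX6, MOLT-16 with 7.93 was the lowest NKL-negative line. On another probe set of JARID2, LOUCY with 11.21 was close to JURKAT with 11.41, while CML-T1 with 11.25 remained the highest NKL-negative line. MOLT-4 remained so on the other probe sets of PHF19, with 8.32 and 9.46. HPB-ALL, CML-T1 and MOLT-16, which hold 4 of these 9 values, are the lines without poly-A signal, and the part of this in those values was not tested.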

How the results depend on the processing

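Under no alternative did a Polycomb gene pass the adjusted threshold. The count of Polycomb genes at an unadjusted p under 0.05 was 2 as reported, 0 after repeated quantile normalization or the filter on low values, 1 with a term for poly-A controls or in lines with poly-A signal only, and 0 to 3 with 1 line left out. The median difference of the PRC2 accessory genes moved from 0.05 to 0.30 in lines with poly-A signal only. Pairs of a gene and a line standing out numbered 10 as reported, 41 at a gap of 1 unit and 17 with any probe set.

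The sign of the difference held under every alternative for 17 of the 30 genes, among them AUTS2, EZH2, EED, PHF19, PCGF3 and KDM2B. For the others it turned as follows. Repeated quantile normalization gave −0.0098 for MTF2 and −0.0076 for JARID2. The term for poly-A controls gave −0.068 for MTF2, 0.127 for YAF2, −0.0064 for L3MBTL2 and −0.0082 for ASXL2. Lines with poly-A signal only gave −0.238 for MTF2, 0.163 for CBX6, 0.134 for YAF2, −0.0575 for L3MBTL2, −0.115 for ASXL1 and −0.06 for ASXL2. The mean over probe sets gave 0.189 for SUZ12, 0.261 for RBBP4, −0.0233 for JARID2 and 0.092 for YAF2. With 1 line left out, the values ran from −0.158 to 0.24 for MTF2, −0.224 to 0.144 for YAF2, −0.109 to 0.169 for ASXL1, −0.152 to 0.0665 for CBX6, −0.189 to 0.0955 for SUZ12, −1.23 to 0.015 for PCGF2, −0.513 to 0.118 for CBX2, −0.599 to 0.0165 for PCGF5, −0.078 to 0.292 for L3MBTL2, −0.043 to 0.352 for JARID2, −0.27 to 0.028 for RING1 and −0.0085 to 0.449 for ASXL2. The causes were not tested.

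No paired analysis was possible, because a line belongs to 1 group only. Depth does not apply to arrays, and values under the lower quartile of an array are limits.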
